A study of Mus musculus with 8 samples.

Results

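Transcripts of 9 small leucine-rich proteoglycan genes were measured in RNA from primary mouse cells that the labels call osteoblasts, taken from the calvaria (the roof of the skull). The genes were taken by symbol from a table of 25239 gene symbols, and all 9 were found, namely Bgn, Dcn, Aspn, Fmod, Lum, Prelp, Omd, Ogn and Podn. The tested mice carried a knockout labelled OSX-SphK2, and the controls were littermates labelled WT. There were 4 libraries of each kind, numbered 1 to 4. Sphk2 encodes sphingosine kinase 2, and OSX stands for osterix, a regulator that osteoblasts need, whose gene is Sp7. All 8 libraries are labelled as primary cells of the calvaria. Age, sex, strain, the design of the allele, time in culture and the number of animals behind a library are not given in the sources used here.

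Small leucine-rich proteoglycans are secreted matrix proteins built of leucine-rich repeats, and most carry chondroitin, dermatan or keratan sulfate chains. They bind fibrillar collagens and shape how collagen fibrils grow, and several also hold growth factors of the TGF-beta family in the matrix. Biglycan and decorin are well-known proteoglycans of bone matrix, osteomodulin was isolated from mineralized bone, and mice that lack biglycan are known for low bone mass.

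Sphk2 itself did not separate the groups. It stood at 69.7 to 131 CPM in the KO-labelled libraries and 64.2 to 134 CPM in controls (counts divided by the TMM-scaled library size and scaled to a common total, CPM), with a log2 fold change of -0.05 (SE 0.30). The design of the allele is not given and whole-gene counts can cover exons outside a deletion, so these counts do not check the labels. Why Sphk2 did not differ was not tested. All directions below are those of the KO-labelled libraries. Total counts ran from 14347495 to 19065421 per library. The 16 macrophage markers summed to 32917 to 55294 CPM per library and the 13 osteoblast markers to 4162 to 16911 CPM, so macrophage transcripts were abundant in every library of a set labelled osteoblasts. In bulk RNA, fewer cells of a type and less RNA per cell cannot be told apart. Both libraries numbered 4 stood apart in earlier results of these data. Their 9 osteoclast markers summed to 6648 CPM in KO-labelled 4 and 10013 CPM in control 4, against 75.8 to 173 CPM in the other 6 libraries, so results are given with and without them.

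Biglycan transcripts made up most of the family. Of the counts on the 9 genes, Bgn held 75.3%, 88.3%, 88.8% and 85.2% in KO-labelled 1 to 4, against 93.4%, 81.2%, 88.2% and 89.6% in controls 1 to 4. KO-labelled 1 had the smallest share, with a 95% Wilson interval of 74.8% to 75.9%, which covers counting error only. Scaled to exon length, Bgn averaged 213 ± 114 CPM per kb (SD, n = 8) and stood above Fmod, the next gene, in 8 of 8 libraries.

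The other members followed at lower and mostly overlapping length-scaled levels. Fmod averaged 32.4 ± 28.8 CPM per kb and Ogn 21.02 ± 15.3 CPM per kb (SD, n = 8 each). Fmod was the higher of this pair in 5 of 8 libraries, so their order did not hold beyond the spread, whereas Ogn was above Aspn in 8 of 8. Aspn averaged 6.37 ± 6.69, Prelp 5.93 ± 5.66 and Omd 2.77 ± 2.11 CPM per kb (SD, n = 8 each). Aspn exceeded Prelp in 4 of 8 libraries, and Prelp exceeded Omd in 4 of 8, so these neighbours did not differ beyond their spread. Dcn, Lum and Podn came last, with means of 1.09, 0.65 and 0.34 CPM per kb, and the means of Dcn and Lum rest on 3 libraries and 1 library. The plot of length-scaled levels shows Bgn apart at the top and the points of Dcn and Lum split between high and near-0 libraries.

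**Figure D1:**
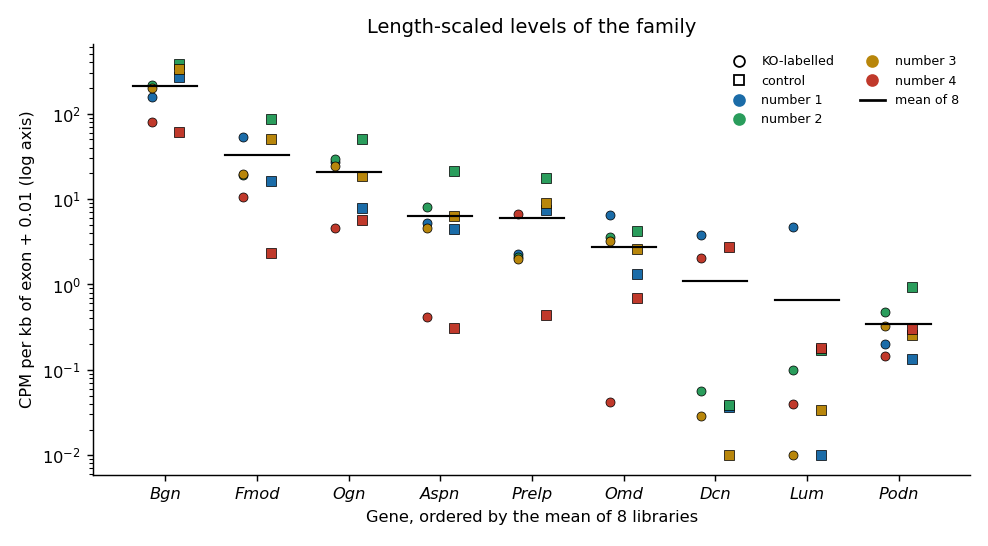
Level of each gene in CPM per kb of annotated exon (log axis, 0.01 added), with circles for KO-labelled libraries, squares for controls, colours for the library number and a bar for the mean of 8. Bgn averaged 213 CPM per kb, and Dcn and Lum split into libraries near 0 and a few high ones.

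No member passed the threshold when all 8 libraries were compared. Dcn and Lum failed the filter on low counts. Of the 7 members tested with edgeR's quasi-likelihood test, 0 were higher and 0 lower at an adjusted p under 0.05, as were 0.0% of the 12837 genes tested. At an unadjusted p under 0.05 there were 0 members and 631 genes, and limma-voom called 0 members and 0 genes. DESeq2 called 0 members, beside 1.37% of genes (0.989% higher, 0.382% lower). With the library number as a block edgeR called 0 members, beside 2.49% of genes (1.31% higher, 1.18% lower). The median log2 fold change of the 7 was -0.62, against -0.02 over all genes tested, with 5 negative and 2 positive. Within numbers 1 to 3, Bgn and Prelp were lower and no member was higher, a count of 2 lower of 7 where 14.1% of 12919 genes were called, 6.29% lower and 7.78% higher. Adding the block there kept both calls, beside 24.2% of genes (12.3% higher, 11.9% lower), and dropping the filter on low counts also kept both, beside 10.3% of 17682 genes (5.64% higher, 4.7% lower). Levels of the groups overlapped for 9 of 9 members with all 8 libraries, where 3.59% of genes did not overlap (2.32% higher, 1.27% lower). The counts of 0 with all 8 libraries do not show equal levels, since the SE of a member's log2 fold change ran from 0.54 to 1.11 with all 8 libraries. The plot of fold changes sets the 3 models side by side.

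**Figure D2:**
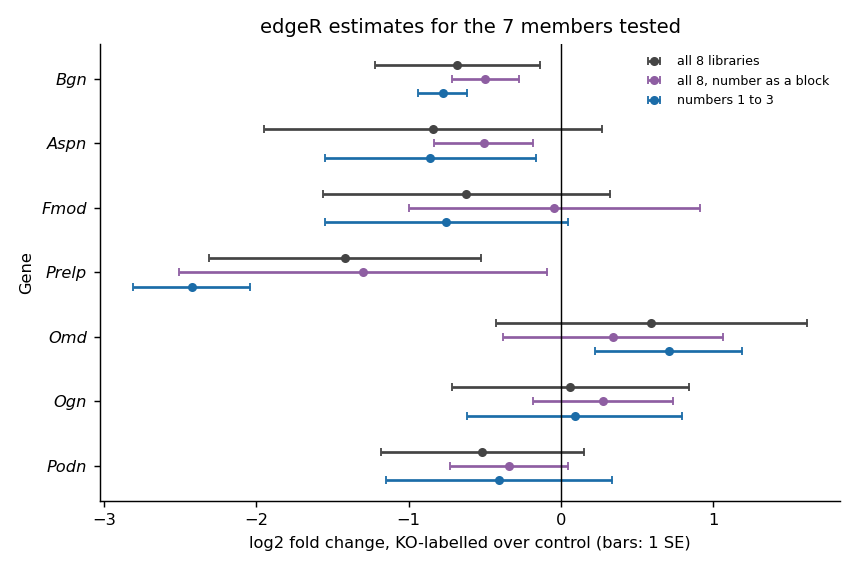
Log2 fold change of KO-labelled over control libraries from edgeR for the 7 members tested (points, with bars of 1 SE), using all 8 libraries, all 8 with the library number as a block, and numbers 1 to 3 only. The estimates of Bgn and Prelp in numbers 1 to 3, at -0.78 and -2.42, were the ones that passed the threshold.

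The class I members are biglycan and decorin, which carry chondroitin or dermatan sulfate, and asporin, which has an acidic stretch instead. Bgn was at 964, 1321, 1218 and 483 CPM in KO-labelled 1 to 4, and at 1627, 2360, 2022 and 377 CPM in controls 1 to 4. In numbers 1 to 3 every KO-labelled library lay below every control, while in number 4 the KO-labelled library was the higher. The ratio of KO-labelled to control was 0.592, 0.560 and 0.602 in pairs 1 to 3 and 1.28 in pair 4. With all 8 libraries its log2 fold change of -0.68 (SE 0.54) did not pass and the groups overlapped (exact two-sided permutation p = 0.486, where the smallest possible is 0.0286).

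Within numbers 1 to 3, Bgn fell to 1168 ± 184 CPM in KO-labelled libraries, against 2003 ± 367 CPM in controls (SD, n = 3 each). edgeR gave -0.78 on the log2 scale (SE 0.16, adjusted p = 0.0203), and -0.77 (SE 0.05, adjusted p = 1.21e-05) with the number as a block. Groups that do not overlap are common in these 6 libraries, at 34.6% of 12919 genes (18.2% higher and 16.4% lower in every KO-labelled library), and an exact permutation test of 3 against 3 cannot go below 0.1. Without KO-labelled 1 the value was -0.66 and still passed, with an adjusted p of 0.0382.

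Markers of other cell types differed in part in the same 6 libraries. The 16 macrophage markers summed to 36774, 33190 and 36033 CPM in KO-labelled 1 to 3 and to 43264, 32917 and 42311 CPM in controls 1 to 3. Of these 16, Mrc1 and Mertk were higher and Itgam and Cd14 lower, beside 7.78% of all genes higher and 6.29% lower. Itgam, an integrin chain of myeloid cells, was at 1114, 1072 and 1120 CPM in KO-labelled 1 to 3, against 1945, 1586 and 1723 CPM in controls 1 to 3. Mrc1, the mannose receptor gene, was at 1588, 1585 and 1431 CPM in KO-labelled 1 to 3, against 1218, 1128 and 1059 CPM in controls 1 to 3. Neither pair of groups overlapped. The 6 mural cell markers summed to 1240 to 2273 CPM in KO-labelled 1 to 3 and 1705 to 3908 CPM in controls 1 to 3, and the 12 fibroblast markers to 1351 to 1826 CPM in KO-labelled 1 to 3 and 848 to 2336 CPM in controls 1 to 3. Without the block 0 of these mural and fibroblast markers passed. Pdgfrb, a growth factor receptor of mesenchymal cells, was at 87.2, 126 and 123 CPM in KO-labelled 1 to 3, against 130.4, 233 and 182 CPM in controls 1 to 3. With the block in numbers 1 to 3, 24.2% of all genes were called (12.3% higher, 11.9% lower). Of 16 macrophage markers tested there, 5 were higher and 5 lower, and of 11 osteoblast markers 2 were higher and 0 lower. Of 6 mural markers tested there, 3 were lower and 1 higher, and of 10 fibroblast markers 3 were lower and 0 higher. The lower ones included Pdgfrb (-0.68, edgeR adjusted p = 0.00013), Tagln (-0.65, adjusted p = 4.7e-05) and Acta2 (-0.58, adjusted p = 0.00024). The mural marker Notch3 was higher (0.64, edgeR adjusted p = 0.0455). With the block and all 8 libraries, Pdgfrb was lower (-0.67, edgeR adjusted p = 0.033) and Mertk higher (0.47, adjusted p = 0.039). In that model 1.31% of all genes were higher and 1.18% lower. Of the osteoclast markers 1 was higher and 2 lower in numbers 1 to 3, at summed levels of 76.2 to 88.7 CPM in KO-labelled and 75.8 to 173 CPM in control libraries. The mesenchymal factor Prrx1 stood at 118, 147 and 132 CPM in KO-labelled 1 to 3 and at 123, 193 and 145 CPM in controls 1 to 3. The part of cell make-up in the Bgn and Prelp results was not tested.

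Type I collagen, which biglycan binds, did not pass the threshold in those 6 libraries. Col1a1 differed by 0.14 (SE 0.38, edgeR adjusted p = 0.847) and Col1a2 by -0.10 (SE 0.31, edgeR adjusted p = 0.872) on the log2 scale. Bgn counts amounted to 8.58%, 16.2%, 14.9% and 23.5% of the Col1a1 and Col1a2 counts in KO-labelled 1 to 4. In controls 1 to 4 they amounted to 28.1%, 17.4%, 26.3% and 10.4%. The KO-labelled share was thus the lower in pairs 1 to 3 and the higher in pair 4. For all 9 members together the share averaged 18.5% ± 6.72 in KO-labelled libraries and 23.2% ± 8.73 in controls (SD, n = 4 each), a log2 difference of -0.30 (exact two-sided permutation p = 0.429). It was -0.09 without KO-labelled 1, -0.14 without control 1, -0.15 without control 3, -0.51 without KO-labelled 4 and -0.60 without control 4. Without number 4 it was -0.82, with the smallest p that 3 against 3 allows, 0.1.

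Dcn, the decorin gene, was close to absent from 5 of 8 libraries. It had 357, 5, 2 and 165 counts in KO-labelled 1 to 4, and 3, 3, 0 and 231 counts in controls 1 to 4. As levels these were 22.1, 0.27, 0.11 and 12.02 CPM in KO-labelled libraries, against 0.16, 0.17, 0.0 and 16.2 CPM in controls. The high libraries were KO-labelled 1 and both libraries numbered 4, so the groups overlapped fully. A count of 3, taken as the floor, corresponds to 0.158 to 0.218 CPM in these libraries. The ratio of Bgn to Dcn counts, with 0.5 added to each, was 43.5 in KO-labelled 1, 40.1 in KO-labelled 4 and 23.3 in control 4, and at least 4421 elsewhere. Between genotypes its log2 differed by -2.82 (exact two-sided permutation p = 0.343). Leaving out 1 library moved this to -1.64 without KO-labelled 1, -1.60 without KO-labelled 4, -1.40 without control 3 and -5.25 without control 4.

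Aspn, the asporin gene, overlapped between the groups. It was at 12.5, 18.9, 10.7 and 0.95 CPM in KO-labelled 1 to 4 and at 10.5, 50.7, 15.1 and 0.70 CPM in controls 1 to 4. Control 2 was the highest library and both libraries numbered 4 were the lowest. With all 8 libraries edgeR gave -0.84 (SE 1.11), and without control 2 it turned to 0.30.

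**Figure D3:**
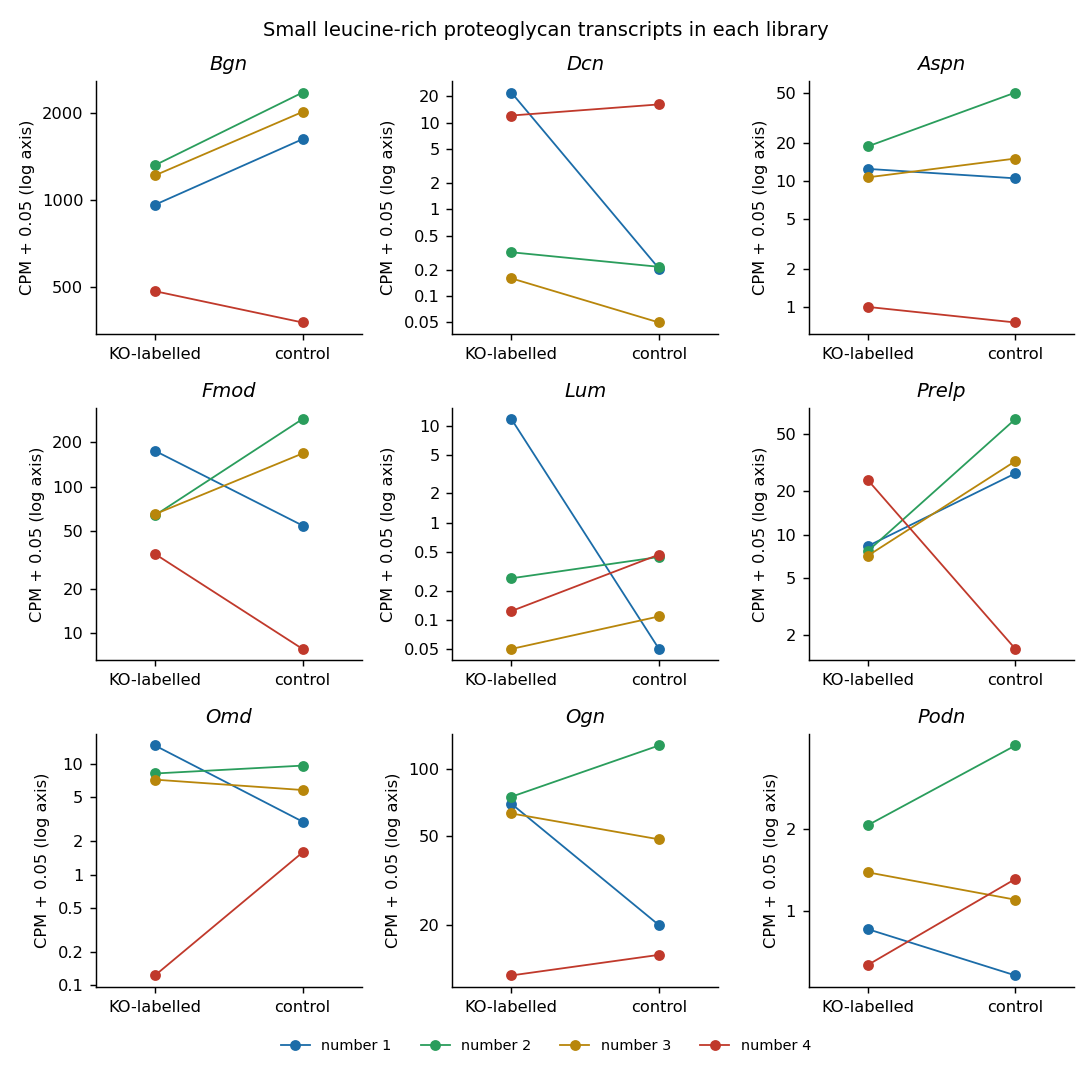
CPM of each gene by group (log axes, 0.05 added), KO-labelled left and control right, with lines joining libraries of the same number. Bgn and Prelp slope one way in numbers 1 to 3 and the other way in number 4, while Dcn and Lum are high in KO-labelled 1.

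The class II members are fibromodulin, lumican, the proline- and arginine-rich protein PRELP and osteomodulin, which carry keratan sulfate or sulfated tyrosines or, in PRELP, a basic heparin-binding end. Prelp was at 8.25, 7.61, 7.06 and 24.0 CPM in KO-labelled 1 to 4. Controls 1 to 4 had 26.7, 64.0, 32.5 and 1.54 CPM. KO-labelled 1 to 3 lay close together below controls 1 to 3, and in number 4 the order was turned. The ratio of KO-labelled to control was 0.309, 0.119 and 0.217 in pairs 1 to 3 and 15.6 in pair 4.

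The Prelp comparison therefore depended on the libraries numbered 4. With all 8 edgeR gave -1.42 (SE 0.89), and -1.30 (SE 1.21) with the number as a block, and neither passed. Within numbers 1 to 3 it fell to 7.64 ± 0.60 CPM in KO-labelled libraries, against 41.0 ± 20.1 CPM in controls (SD, n = 3 each). That is -2.42 on the log2 scale (SE 0.38, edgeR adjusted p = 0.0150). It was -2.34 with the block, and -2.48 with an adjusted p of 0.0459 without KO-labelled 1.

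Fmod, the fibromodulin gene, did not separate the groups. It was at 175, 63.5, 64.6 and 34.5 CPM in KO-labelled 1 to 4, against 54.0, 289, 168 and 7.69 CPM in controls 1 to 4. It was the higher in KO-labelled libraries in pairs 1 and 4 and the lower in pairs 2 and 3. Its estimate was -0.62 (SE 0.94), and without control 2 it turned to 0.15.

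Lum, the lumican gene, was detected above a handful of counts in a single library. It had 188, 4, 0 and 1 counts in KO-labelled 1 to 4 and 0, 7, 1 and 6 counts in controls 1 to 4. KO-labelled 1, at 11.7 CPM, stood alone, and every other library was at or under 0.42 CPM. Lum lies 47.0 kb from Dcn on chromosome 10 of GRCm38, with Dcn at chr10:97479609-97518143 and Lum at chr10:97565128-97572703, both on the plus strand. The neighbours matched in KO-labelled 1, where both were high, but not in number 4, where Dcn had 165 and 231 counts in KO-labelled 4 and control 4 and Lum had 1 and 6.

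Lum was not the only gene high in that library. By a rule chosen after the values were seen, 10 genes reached at least 5 CPM in KO-labelled 1 and at least 10 times their level in every other library. Besides Lum they were Ibsp, Bglap, Bglap2, Panx3, Dmp1, Phex, Col22a1, Car3 and Entpd3, and 5 of the 10 are in the list of osteoblast markers. Ibsp, the bone sialoprotein gene, was at 1082 CPM in KO-labelled 1 and at 0.66 to 49.2 CPM elsewhere. Bglap, the osteocalcin gene, was at 42.3 CPM in KO-labelled 1 and at or under 0.58 CPM elsewhere. The rule itself requires that the other KO-labelled libraries lack the pattern, so it describes 1 library and cannot bear on the genotypes. Applied to KO-labelled 1 together with both libraries numbered 4, the same cut-offs left 1 gene, Dcn.

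**Figure D4:**
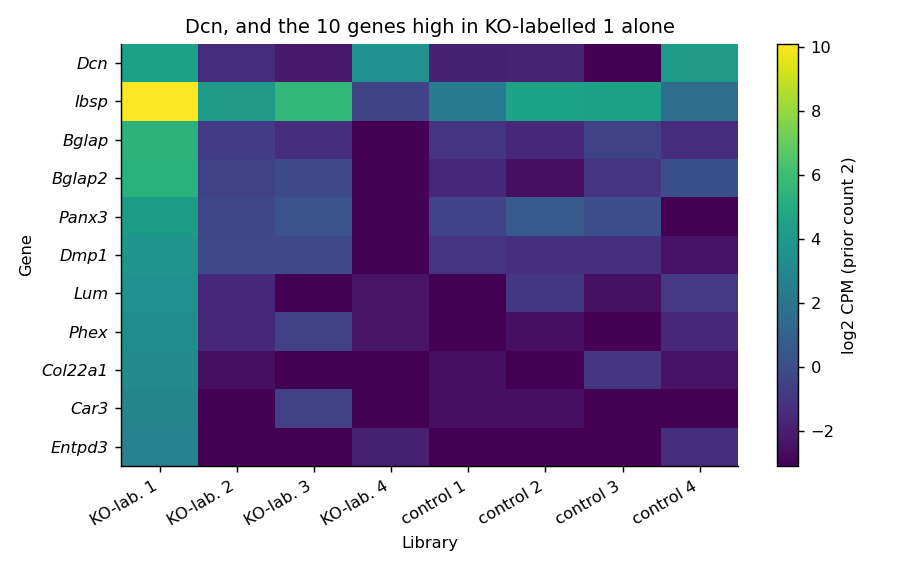
Level of Dcn and of the 10 genes high in KO-labelled 1 alone, as log2 CPM with a prior count of 2 (colour), in the 8 libraries. The column of KO-labelled 1 is the brightest for every gene shown, which the rule fixed for the 10, and Dcn is also bright in both libraries numbered 4.

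Omd, the osteomodulin gene, had a positive estimate with wide error. It was at 14.6, 8.15, 7.17 and 0.07 CPM in KO-labelled 1 to 4 and at 2.96, 9.61, 5.77 and 1.54 CPM in controls 1 to 4. KO-labelled 1 was the highest library and KO-labelled 4, with 1 count, the lowest. edgeR gave 0.59 (SE 1.02), and 0.71 (SE 0.48) in numbers 1 to 3, and neither passed. The estimate was 0.05 without KO-labelled 1, 0.30 without control 4, 1.01 without KO-labelled 4 and 1.14 without control 2.

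Ogn, the gene of the class III member osteoglycin or mimecan, did not differ past the threshold. It was at 70.03, 75.3, 63.3 and 11.8 CPM in KO-labelled 1 to 4, against 19.9, 128, 48.4 and 14.6 CPM in controls 1 to 4. KO-labelled 1 to 3 lay within the range of controls 1 to 3, which was the wider. Its estimate was 0.06 (SE 0.78).

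Podn, the gene of the class V member podocan, was the weakest of the members tested. It had 8 to 37 counts in KO-labelled libraries and 10 to 71 in controls, with means of 1.18 ± 0.64 CPM and 1.71 ± 1.55 CPM (SD, n = 4 each). Its estimate was -0.52 (SE 0.67), and without control 2 it turned to 0.35. The plot of differences between same-numbered libraries shows that no member kept 1 direction in 4 of 4 pairs.

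**Figure D5:**
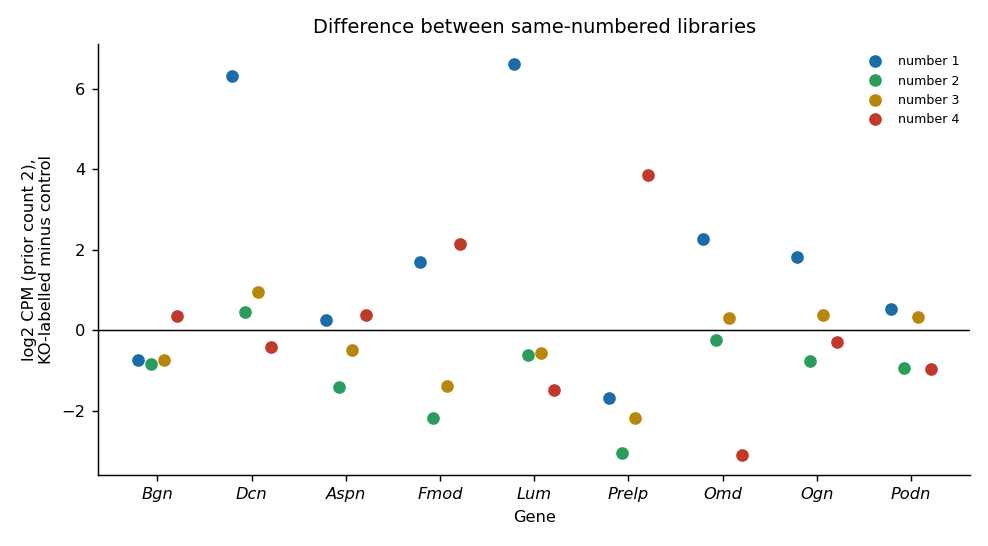
Difference in log2 CPM (prior count 2) between the KO-labelled and the control library of the same number, for each gene and number. Bgn and Prelp are below 0 in numbers 1 to 3 and above 0 in number 4, and every gene has points on both sides of 0.

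Most members were low in the libraries numbered 4. Bgn, Aspn, Fmod, Omd and Ogn, 5 of the 7 members tested, were lower in both libraries numbered 4 than in each of the other 6, as were 33.8% of 12837 genes, while 0 members and 34.2% of genes were higher in both. For Bgn the range was 377 to 483 CPM in number 4 against 964 to 2360 CPM in the rest, and for Aspn 0.70 to 0.95 CPM against 10.5 to 50.7 CPM. Type I collagen moved the same way, with Col1a1 at 907 to 1761 CPM in number 4 against 2784 to 7205 CPM in the rest. Prrx1 stood at 25.7 to 28.5 CPM against 118 to 193 CPM. The osteoclast markers given above moved the other way, and the part of cell make-up in these differences was not tested. Prelp and Podn overlapped between number 4 and the rest.

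The family's location was looked at beside these patterns. Aspn, Omd and Ogn lie in a row on the plus strand of chromosome 13, at chr13:49544443-49567565, chr13:49582462-49592822 and chr13:49608046-49624501, with gaps of 14.9 and 15.2 kb. All 3 lie inside the span of Cenpp, a centromere protein gene on the opposite strand. Aspn shares 7 exonic bases with it and the other two none, and Cenpp had 21 to 50 counts in a library. Fmod (chr1:134037254-134048277, plus strand) and Prelp (chr1:133910304-133921414, minus strand) lie 116 kb apart, and 350 exonic bases of Prelp overlap an antisense gene not analysed here. As strand use in counting is not given, reads there cannot be told apart. Bgn is on the X chromosome (chrX:73483602-73495933) and Podn on chromosome 4 (chr4:108014791-108096445). The root mean square difference between centred log2 CPM profiles over 8 libraries ran from 1.02 to 1.15 for pairs of tested members on 1 chromosome. For pairs on different chromosomes it ran from 0.80 for Bgn and Ogn to 2.42 for Prelp and Omd. These values describe 8 libraries that share their depth and make-up.

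Promoter sequence was available from RefSeq (GRCm38.p6) for 7 of the 9 members, as the 250 bases before the start of transcription. Those of Bgn and Prelp are shown because both genes passed the threshold in numbers 1 to 3. Those of Aspn, Omd and Ogn are shown because these chromosome 13 neighbours were lower in both libraries numbered 4. Capitals mark matches on either strand to 4 motifs. The GC box was searched as GGGCGG, to which factors of the Sp family bind. The TATA box, found near the start of some genes, was searched as TATAAA. The core element of RUNX factors, which direct osteoblast genes, was searched as TGTGGT. The element of the AP-1 factors, dimers of Fos and Jun proteins, was searched as TGANTCA. A match is a description of letters and not a site.
Bgn, chrX:73483351-73483600, plus strand: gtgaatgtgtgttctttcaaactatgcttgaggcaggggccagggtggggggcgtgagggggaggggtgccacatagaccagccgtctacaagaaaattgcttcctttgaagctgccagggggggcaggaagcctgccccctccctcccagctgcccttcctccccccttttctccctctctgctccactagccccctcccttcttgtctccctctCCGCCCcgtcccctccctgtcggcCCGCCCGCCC
Prelp, chr1:133921402-133921651, minus strand: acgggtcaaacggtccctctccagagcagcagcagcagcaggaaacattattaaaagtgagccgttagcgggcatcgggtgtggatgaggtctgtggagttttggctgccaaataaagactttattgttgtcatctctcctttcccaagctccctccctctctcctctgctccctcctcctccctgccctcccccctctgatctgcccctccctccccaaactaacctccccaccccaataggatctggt
Aspn, chr13:49544193-49544442, plus strand: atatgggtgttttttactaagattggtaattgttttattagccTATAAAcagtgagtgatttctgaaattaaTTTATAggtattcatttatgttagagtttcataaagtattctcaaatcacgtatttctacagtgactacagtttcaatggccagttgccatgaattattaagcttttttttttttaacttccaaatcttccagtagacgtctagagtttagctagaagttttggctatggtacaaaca
Omd, chr13:49582212-49582461, plus strand: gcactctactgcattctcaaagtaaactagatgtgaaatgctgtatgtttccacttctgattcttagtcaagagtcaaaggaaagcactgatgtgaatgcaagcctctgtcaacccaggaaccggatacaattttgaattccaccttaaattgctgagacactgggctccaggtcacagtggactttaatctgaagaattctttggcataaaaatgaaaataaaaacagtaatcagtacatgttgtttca
Ogn, chr13:49607765-49608014, plus strand: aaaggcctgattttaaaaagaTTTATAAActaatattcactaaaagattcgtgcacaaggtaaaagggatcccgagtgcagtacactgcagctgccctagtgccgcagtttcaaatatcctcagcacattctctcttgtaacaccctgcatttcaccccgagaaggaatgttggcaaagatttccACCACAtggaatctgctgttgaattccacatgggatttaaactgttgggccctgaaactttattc

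The Bgn window had a GC content of 64.4% and 3 matches to the GC box, the last pair overlapping, and no TATA box. The Prelp window, at 55.6% GC, had no match to any of the 4 motifs. Nor had the Omd window, at 38.4% GC. The Aspn window, at 30% GC, had 2 TATA box matches, and the Ogn window, at 42.0%, had 2 overlapping TATA box matches and 1 RUNX core match. The windows of Fmod and Podn are not printed. That of Fmod, at 51.2% GC, had no match. Those of Podn had 2 GC box matches at 78.0% GC and none at 64.0% GC. Among all 32851 windows of the same length, 32.7% held a GC box, 12.4% a TATA box, 14% a RUNX core and 6.75% an AP-1 match.

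A few other genes had profiles close to the family's. Among 9504 genes whose average log2 CPM reached 3, Svep1, Shisa4, Slit3, Mylk and Atp2b4 had the smallest root mean square difference from the mean profile of the 7 members tested, at 0.21 to 0.29 log2 units over 8 libraries. Svep1, an extracellular adhesion protein gene, was at 31.6, 39.8, 25.2 and 8.45 CPM in KO-labelled 1 to 4 and at 17.6, 87.4, 36.9 and 7.83 CPM in controls 1 to 4. Like Bgn, Aspn, Fmod and Ogn it was highest in control 2 and lowest in the libraries numbered 4. Among members, Bgn and Ogn were nearest to the mean profile, at 0.48 each, and Prelp farthest, at 1.27.

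Other genes of the family were few in these cells. Of 9 further leucine-rich repeat matrix genes, 4 were expressed enough to test, and Kera and Epyc, the neighbours of Lum, had no count in any library. None of the 4 passed with all 8 libraries. Within numbers 1 to 3 Tsku, which encodes tsukushi, a secreted inhibitor of several growth factors, was lower, at 70.9, 68.0 and 70.7 CPM in KO-labelled libraries against 127, 97.3 and 126 CPM in controls, with a log2 fold change of -0.74 (SE 0.10, edgeR adjusted p = 0.0021), 1 of 4 tested where 6.29% of all genes were lower. Podnl1 (-0.35, SE 0.34, all 8 libraries) and Chadl (-0.49, SE 0.34) did not pass.

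Enzymes that build the sugar chains were measured as 3 lists. Of 7 linker genes, 15 chondroitin and dermatan sulfate genes and 6 keratan sulfate genes tested, 0 passed with all 8 libraries, with median log2 fold changes of -0.16, -0.23 and -0.08. With the number as a block, 1 passed, Chpf, a chondroitin polymerizing factor (-0.52, SE 0.06, edgeR adjusted p = 0.0361), beside 1.18% of all genes lower and 1.31% higher. Among numbers 1 to 3, where 6.29% of all genes were lower and 7.78% higher, 2 linker genes were lower, Xylt2, which starts the chain by adding xylose (-0.35, SE 0.07), and the xylose kinase Fam20b (-0.26, SE 0.06). Of the chondroitin genes 3 were lower there, Chst12 (-0.30, SE 0.07) and, chosen after their values were seen, Chsy1 (-0.55, SE 0.08) and Csgalnact2 (-0.43, SE 0.08). None of the 3 lists had a higher call in numbers 1 to 3 without the block. With the block there, 1 keratan sulfate gene was higher, B3gnt2 (0.21, edgeR adjusted p = 0.0212), and 1 lower. In that model 2 linker genes and 7 chondroitin genes were lower, beside 11.9% of all genes lower and 12.3% higher. Dse, the dermatan sulfate epimerase (0.16, SE 0.24), Chpf2 (0.02, SE 0.13), B3gat3 (-0.17, SE 0.17), B4galt1 (-0.0044, SE 0.12), B3gnt2 (0.18, SE 0.10) and Chst2 (-0.42, SE 0.51), given with all 8 libraries, did not pass.

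Proteases and receptors of the core proteins were the last lists. Of 9 processing genes tested, Bmp1, which removes the propeptide of biglycan, was the only one lower with the block (-0.65, SE 0.11, adjusted p = 0.0463) and in numbers 1 to 3 (-0.70, SE 0.16, adjusted p = 0.0324, where 6.29% of all genes were lower). It was at 126, 126, 118 and 50.5 CPM in KO-labelled 1 to 4 and at 159, 251, 194 and 73.1 CPM in controls 1 to 4, lower in 4 of 4 pairs. The blocked model favours genes whose pairs go 1 way, so the pairs add no support. With all 8 libraries and no block Bmp1 was at -0.69 (SE 0.42) and did not pass. With the block in numbers 1 to 3, 3 processing genes were lower, Bmp1, Tll1 and Adamts5, and 1 was higher, Adamts4. In that model 11.9% of all genes were lower and 12.3% higher. Mmp14 (-0.18, SE 0.42) and Mmp2 (-0.09, SE 0.41), metalloproteinases of the cell surface and matrix, did not pass in any of the 3 models.

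Of 11 receptor genes tested, Tlr4, a receptor that soluble biglycan engages, was the only one past the threshold with the block and all 8 libraries. It was higher (0.33, SE 0.06, edgeR adjusted p = 0.0458), beside 1.31% of all genes higher and 1.18% lower. It was at 168, 154, 157 and 69.5 CPM in KO-labelled 1 to 4, against 144, 118, 126 and 51.8 CPM in controls 1 to 4. Every pair went the same way, but the blocked model favours such genes, so this adds no support. Without the block the Tlr4 value was 0.32 (SE 0.37). Among numbers 1 to 3, 1 receptor was higher, Tlr4, and Cd14, Igf1r and Itgb1 were lower, the first pair chosen after their values were seen, beside 7.78% of all genes higher and 6.29% lower. Itgb1, the integrin beta 1 chain, had a log2 fold change of -0.59 (SE 0.09, adjusted p = 0.0033). Lrp1 (-0.05, SE 0.88) and Cd44 (-0.07, SE 0.27) did not pass. In the blocked model 0 genes passed without number 1, without number 2 or without number 3. Without number 4, where 24.2% of 12919 genes were called, Chpf, Bmp1 and Tlr4 were among them (edgeR adjusted p = 0.00013, 0.037 and 0.0024). Of the 8 fibrillar collagen chains, 0 passed in any of the 3 models, and Col5a1 was at -0.17 (SE 0.59).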

How the data were processed

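Polyadenylated RNA of 8 libraries was sequenced, 4 labelled OSX-SphK2 knockout and 4 labelled WT, with group and number taken from the sample titles. The authors deposited 1 table of raw counts by gene symbol. The submitters' processing notes name the tools STAR 2.7.11b and featureCounts 2 and the build GRCm38 (mm10), and strand use and the treatment of multiply aligned reads are not given in the sources used here. Counts were compared with edgeR 4.0.16 (R 4.3.3) by the quasi-likelihood F test with filterByExpr, TMM scaling and a model of genotype alone, adjusted by Benjamini-Hochberg over all genes tested. The code was tested on simulated counts. DESeq2 1.42.0, limma 3.58.1 voom, other scalings, no filter, left-out libraries and a block for the number were alternatives. CPM used TMM library sizes, and log2 CPM a prior count of 2. Exon lengths and coordinates came from GENCODE M21, which matched 24321 symbols (96.4%).

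The members and lists were chosen with earlier results of these data known. All members were named, with the 3 most abundant genes of each pathway list, any pathway list gene past the threshold with the block, and the 5 genes nearest in profile. Library pairs within a group differed beyond sampling noise (chi-square per degree of freedom of at least 8.56), so each counted once. The labels do not say that libraries came from separate animals, so p-values measure the spread between libraries. After removing group means, same-numbered libraries correlated with r between 0.46 and 0.83, all above 0.1, so numbers were taken to pair them, from the data and not from a label. Libraries of unlike number within 1 to 3 had r between 0.416 and 0.571, so the cut-off of 0.1 did not tell these numbers apart. KO-labelled 1 had a higher r with control 2 (0.51) than with control 1 (0.46). When number 4 was left out, r was 0.16, 0.289 and 0.376 for same-numbered libraries 1 to 3. For unlike numbers it then ran from -0.255 to -0.022.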

Additional observations from a re-analysis of the deposited data

Results flagged for a closer look

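Chance passes Dixon's 95% critical value for 4 libraries about 1 time in 20, but only for normal and independent values. CPM of the same 8 libraries, some near the floor, need not meet this. Of 18 combinations of member and group looked at, 3 had a library whose gap to its nearest neighbour was above that value. For Lum in the KO-labelled group it was KO-labelled 1, at 11.7 CPM (gap 0.981 of the range). For Prelp in the KO-labelled group it was KO-labelled 4, at 24.0 CPM (0.929 of the range), the library that turned the direction of its pair. For Dcn in the control group it was control 4, at 16.2 CPM (0.990 of the range).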

How the results depend on the processing

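Over all genes, 0 passed with edgeR on all 8 libraries without a block, against 176 with DESeq2 and 319 with the replicate block. Without replicate 4, 1817 passed, or 3132 with the block and 1828 with no filter. Without replicate 4 and KO-labelled 1, 1027 passed (where Fmod was at -1.41). When 1 library was left out, 0 to 38 passed. Of members, 0 passed except for 2 in each setting that left out number 4 from both groups, always Bgn (-0.66 to -0.78) and Prelp (-2.34 to -2.48). Leaving out number 4 was itself prompted by earlier results of these data, in which both its libraries stood apart. The settings that also drop the filter or KO-labelled 1 were chosen after seeing the data. The replicate block changed no member's call with all 8 libraries. Leaving out 1 library moved Ogn between -0.25 and 1.0, Aspn between -1.26 and 0.30, Fmod between -1.26 and 0.15, Omd between 0.05 and 1.14, Bgn between -1.01 and -0.43, Prelp between -2.02 and -0.80 and Podn between -0.90 and 0.35. With limma-voom Fmod was at 0.07 and Omd at -0.26. With the block, Omd and Ogn were at -0.40 and -0.23 without number 1, and Fmod at 0.81 and 0.62 without number 2 or 3. The cause of these reversals was not tested. The summed CPM of the members, 1179 ± 417 in KO-labelled libraries and 1840 ± 1060 in controls (SD, n = 4 each), differed by -0.43 on the log2 scale (exact two-sided permutation p = 0.514). It was -1.03 without control 4 and -0.11 without KO-labelled 4 or control 2. It turned to 0.12 when the mean of log2 CPM gave each member the same weight, and kept its sign under 3 other scalings. Without the filter Dcn was at 1.10 (SE 1.89) and Lum at 3.77 (SE 1.88), neither past the threshold. With number 4 also left out, Dcn was at 5.97 (SE 2.89) and Lum at 4.65 (SE 2.64). Neither passed, and KO-labelled 1 was then the only high library for both. Dcn had 5 counts or fewer in 5 of 8 libraries and Lum 7 or fewer in 7 of 8, which limits the precision of both.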

Other observations

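Control 4 also held transcripts of major histocompatibility genes that the other libraries lacked. By the rule applied above to KO-labelled 1 (at least 5 CPM and 10 times every other library), 12 genes were high in control 4 alone, 10 in KO-labelled 1, 2 in KO-labelled 4, 1 in KO-labelled 3 and 0 in each of the remaining 4 libraries. H2-Ea, which encodes a class II chain known to be silent in mice of the C57BL/6 haplotype, was at 17.6 CPM in control 4 and had no count in the other 7 libraries. H2-Q1 was at 38.9 CPM in control 4 and at or under 0.16 CPM elsewhere, and H2-Q10 at 10.3 CPM against at most 0.06 CPM. KO-labelled 4, the other library of that number, did not share these genes. Their relation to the member levels of control 4, such as 1.54 CPM for Prelp, was not tested.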
